A study of Homo sapiens and Mus musculus with 47 samples.

Results

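Chrom-seq with the TAF3 reader in Neuro-2a cells was described here through 3 libraries made with the reader and 3 made with a reader-free control, 6 of the 47 samples in the series, chosen by cell line and reader as the sample labels give them. Neuro-2a is a mouse neuroblastoma line. In the TAF3 group the cells expressed the PHD finger of mouse TAF3 fused to an array of 10 GCN4 peptide tags (SunTag), and in the control group the same array without a reader. Cells of both groups also expressed scFv-APEX2, an antibody fragment that binds the tags and carries the peroxidase APEX2. The reader vector also encoded mCherry and the scFv-APEX2 vector EGFP. Expression lasted 48 h, biotin-aniline was present at 500 µM for 30 min and H2O2 was added at 1 mM for 1 min, after which biotinylated RNA was pulled down on streptavidin, selected for poly(A) and sequenced. The methods describe transient transfection of plasmids for another line and do not describe the Neuro-2a culture, so the cells that took up both constructs may be a share of each well. The study calls its Chrom-seq replicates in general independent, but no source describes those of Neuro-2a or says that they came from separate cultures, and p-values here measure the spread between these libraries, which may be technical.

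TAF3 is a subunit of TFIID, the general transcription factor that positions RNA polymerase II at promoters, and its PHD finger binds histone H3 trimethylated at lysine 4 (H3K4me3). That mark lies over the start sites of active and poised genes, many of them rich in CG dinucleotides. APEX2, switched on briefly with H2O2, tags RNA close to the enzyme, so nascent transcripts, introns and RNAs held at chromatin can be labelled as well as mature RNA passing by. The comparison asked which RNAs were recovered more with the reader than with the reader-free tag array.

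The reader is encoded by the last 3 coding exons of Taf3 (RefSeq transcript NM_027748.3, mm10, minus strand of chromosome 2), which end the 932-residue protein; residues 841 to 932, 92 residues and 276 bases, form the construct. The exons are shown because they are the only part of Taf3 that the TAF3 group was given. Capitals mark the codons of cysteine and histidine, the residues from which a PHD finger takes its zinc ligands; there were 7 cysteines and 4 histidines, and not each of them is a ligand. The first stretch lies at chr2:9921052-9921105, the second at chr2:9918103-9918209 and the third at chr2:9916352-9916466.
Taf3 coding exon 5: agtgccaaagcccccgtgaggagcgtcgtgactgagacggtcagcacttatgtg
Taf3 coding exon 6: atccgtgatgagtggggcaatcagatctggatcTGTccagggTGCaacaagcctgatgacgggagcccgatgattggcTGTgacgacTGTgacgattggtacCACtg
Taf3 coding exon 7: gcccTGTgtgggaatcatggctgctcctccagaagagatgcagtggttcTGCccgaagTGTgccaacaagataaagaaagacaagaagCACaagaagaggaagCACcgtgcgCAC

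Taf3 itself, counted over the whole gene (ENSMUSG00000025782.12, chr2:9914552-10048596), checked the labels. It had 2273, 2217 and 1903 counts in the control libraries and 16012, 19489 and 21934 in the TAF3 libraries. Each TAF3 library lay far above each control. The log2 fold change was 3.25 (standard error 0.11, edgeR adjusted p = 8.20e-07), and 3.32 without TAF3 replicate 1 (standard error 0.06, adjusted p = 9.40e-34). RNA of the construct and RNA of the gene cannot be told apart in gene counts. Of the 15 TFIID subunit genes tested, Taf3 was the 1 enriched, in both fits.

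Total counts were 11045737 to 13317137 in the control group and 10012172 to 11454449 in the TAF3 group, and 19378 to 21650 genes had a count. TAF3 replicate 1 stood apart from the other libraries. Among the 9702 genes that averaged 100 counts or more, 706 were higher and 296 lower in it by at least 0.75 on the log2 scale than in the mean of TAF3 replicates 2 and 3. Those replicates were that far apart at 18 genes, and Control replicate 1 was that far from the other controls at 6. The chi-square per gene was 32.75 and 37.41 between TAF3 replicate 1 and the other TAF3 libraries, 3.237 between TAF3 replicates 2 and 3, and 2.986 to 4.858 between controls. Examples, chosen after their values were seen, were Cdk8, a Mediator kinase, with 16668 counts in TAF3 replicate 1 against 2191 and 2096, and Fhl2, a LIM-domain protein, with 101 counts against 2180 and 2486. edgeR put the biological coefficient of variation at 0.169 for all 6 libraries and 0.068 without TAF3 replicate 1. The labels name no batch, so counts of called genes are mostly given with all 6 libraries and without that library. Values of single genes are with all 6 libraries unless stated otherwise.

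With all 6 libraries, 172 of 17006 tested genes were enriched with TAF3 (1.01%) and 4 were depleted (0.0235%), by edgeR's quasi-likelihood test with an adjusted p below 0.05, where the log2 fold change also had to reach 0.75 in either direction. Without TAF3 replicate 1, 565 of 16940 were enriched (3.34%) and 55 depleted (0.325%). Of the 172 genes, 170 (98.8%) were also among the 565, of which they made 30.1%. Among called genes, enrichment was thus by far the commoner direction in both fits. The median log2 fold change was 1.97 over the 172 genes and 2.03 over the 565, against 0.03 and 0.01 over all tested genes. Calls fell to between 41 and 45 enriched genes when any control was left out, and were 70 without TAF3 replicate 2 and 105 without TAF3 replicate 3. DESeq2 gave 389 enriched genes (2.29%), 172 of them the genes that edgeR called, and 13 depleted ones (0.0764%), and limma's voom with a weight for each library gave 711 (4.18%) and 51 (0.3%). At an unadjusted p under 0.05, edgeR marked 2760 genes (16.2%) with all 6 libraries and 4813 (28.4%) without TAF3 replicate 1, in either direction. With all 6 libraries 1285 protein-coding genes were higher and 1030 lower at that p, and 339 and 106 genes of other types. Without TAF3 replicate 1 the counts were 1968 and 2299, and 412 and 134, so the excess of rises among called genes was not seen there for protein-coding genes. The voom weight of TAF3 replicate 1 was 0.161, against 1.12 to 1.98 for the others. At the threshold, Gm36041, Nfs1 and Wdr66 lay just inside (adjusted p = 0.0497 each, edgeR), and Pecam1, Bco1 and Firre just outside (0.0503 each). No library of total RNA from the same cells was used here, so a change in labelling and a change in an RNA's level in the cells cannot be told apart, and neither can fewer cells of a type and less RNA per cell.

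**Figure D1:**
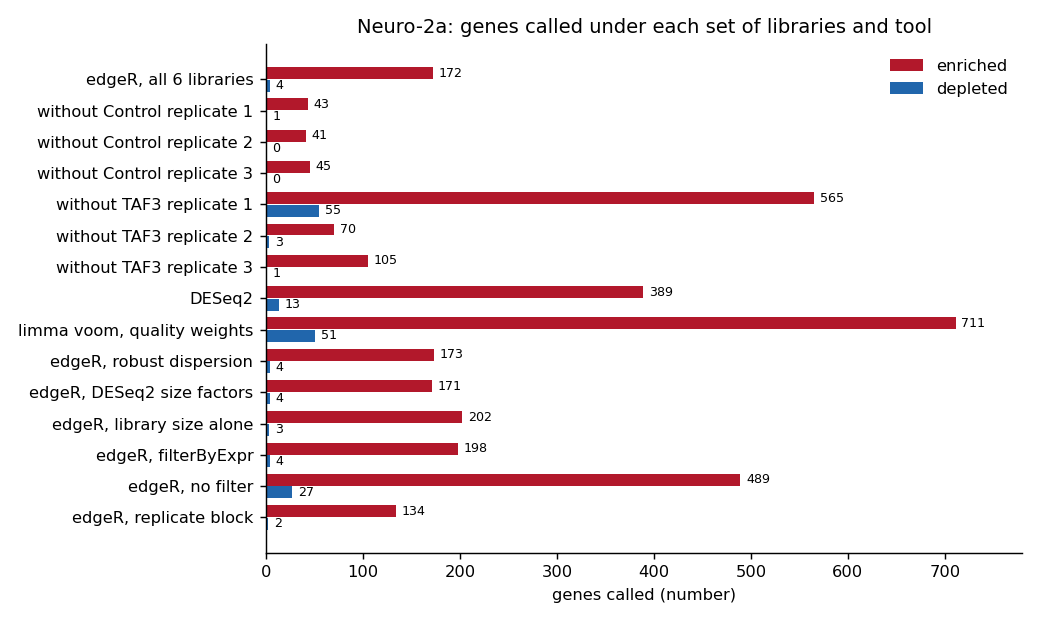
Number of genes enriched (red) and depleted (blue) in the TAF3 libraries against the controls under each set of libraries and each tool. Enriched genes outnumbered depleted ones in every bar pair, with 172 and 4 by edgeR on all 6 libraries and 565 and 55 without TAF3 replicate 1.

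**Figure D2:**
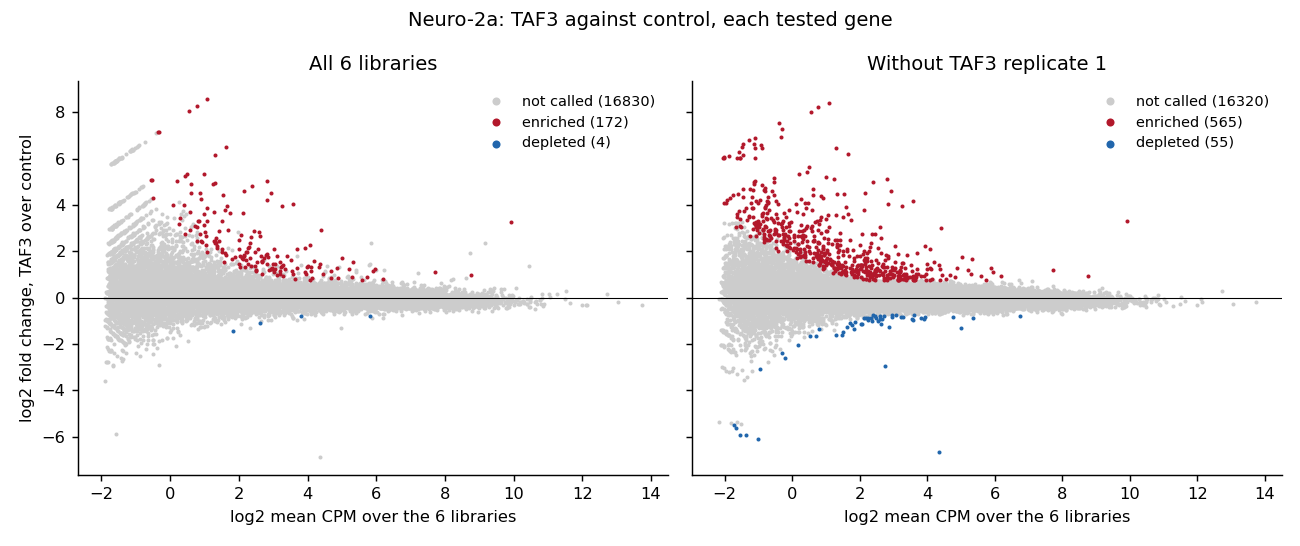
Log2 fold change of TAF3 over control against the log2 mean CPM (TMM-scaled) of each tested gene, with all 6 libraries at left and without TAF3 replicate 1 at right. Red points are enriched and blue points depleted; most red points lie at low levels, and the isolated red point near 10 on the horizontal axis is Taf3.

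TAF3 replicate 1 did not enter the choice of the 565 genes, although the controls did, so its own values can be read beside them. It lay above each of the controls at 508 of the 565 (89.9%), against 39.5% of all tested genes, and at least 0.75 higher on the log2 scale at 415 (73.5%), against 11.9%. Its median log2 difference from the controls was 1.17, and that of TAF3 replicates 2 and 3 was 1.30. The 55 depleted genes held less well. It lay below each of the controls at 30 of them (54.5%, against 38% of all tested genes), with a median of -0.41, where TAF3 replicates 2 and 3 had -0.92.

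The genes with the largest rises among those of at least 100 counts on average, besides Taf3, were mostly large genes at low levels in the controls. Fer1l6, of the ferlin family of membrane proteins, had 13, 22 and 12 counts in the controls and 187, 264 and 300 with TAF3. Agbl1, a cytosolic carboxypeptidase of the family that trims glutamates from tubulin, had 21, 9 and 10 counts against 187, 197 and 204. In both genes each TAF3 library lay many times above each control. The log2 fold change was 4.06 for Fer1l6 (standard error 0.276, adjusted p = 1.13e-04, edgeR) and 3.97 for Agbl1 (0.26, 1.13e-04). Fer1l6 spans chr15:58510048-58665092 and Agbl1 chr7:76229887-77124698 in mm10.

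Ptprt, a receptor tyrosine phosphatase of neurons that spans chr2:161521990-162661147, had 67, 44 and 62 counts in the controls and 328, 420 and 483 with TAF3 (log2 fold change 2.91, standard error 0.184, edgeR adjusted p = 1.13e-04). Camk2b, the beta subunit of calcium/calmodulin-dependent kinase II, had 88, 70 and 45 counts against 349, 289 and 279. C7, a component of the complement attack complex, had 83, 41 and 73 against 222, 274 and 332. None of these groups overlapped. Their log2 fold changes were 2.29 for Camk2b and 2.16 for C7. Ak8, an adenylate kinase, rose by 2.08, Lrmda, a leucine-rich repeat gene, by 1.79, and Togaram2, a gene of a microtubule-binding family, by 1.63. D5Ertd615e, a lincRNA gene of chr5:45009171-45424402, had 198, 185 and 154 counts against 453, 587 and 588, a log2 fold change of 1.69. Without TAF3 replicate 1 the rule added Tnr, the brain matrix protein tenascin-R (206, 263 and 239 against 505, 700 and 760 counts), and Plcl1, a phospholipase C-like protein (119, 107 and 96 against 285, 276 and 331). Both also passed with all 6 libraries, at log2 fold changes of 1.54 and 1.56.

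Abundant RNAs were few among the enriched ones. Apart from Taf3, the most abundant were Peg10, a paternally expressed gene derived from a retrotransposon, and Astn2, a membrane protein of migrating neurons, both named after their values were seen. Peg10 had 3718, 3207 and 3283 counts in the controls and 6387, 6227 and 6390 with TAF3, and its log2 fold change was 0.99 (standard error 0.0929, adjusted p = 0.00127, edgeR). On the scale of CPM (counts scaled to a common library size with TMM factors), Astn2 was at 130.2, 152 and 119 CPM in the controls and 245, 307 and 306 CPM with TAF3, a log2 fold change of 1.10 (standard error 0.127, adjusted p = 0.00408). In Peg10 and Astn2 each TAF3 library lay above each control, by less than in the rarer RNAs.

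**Figure D3:**
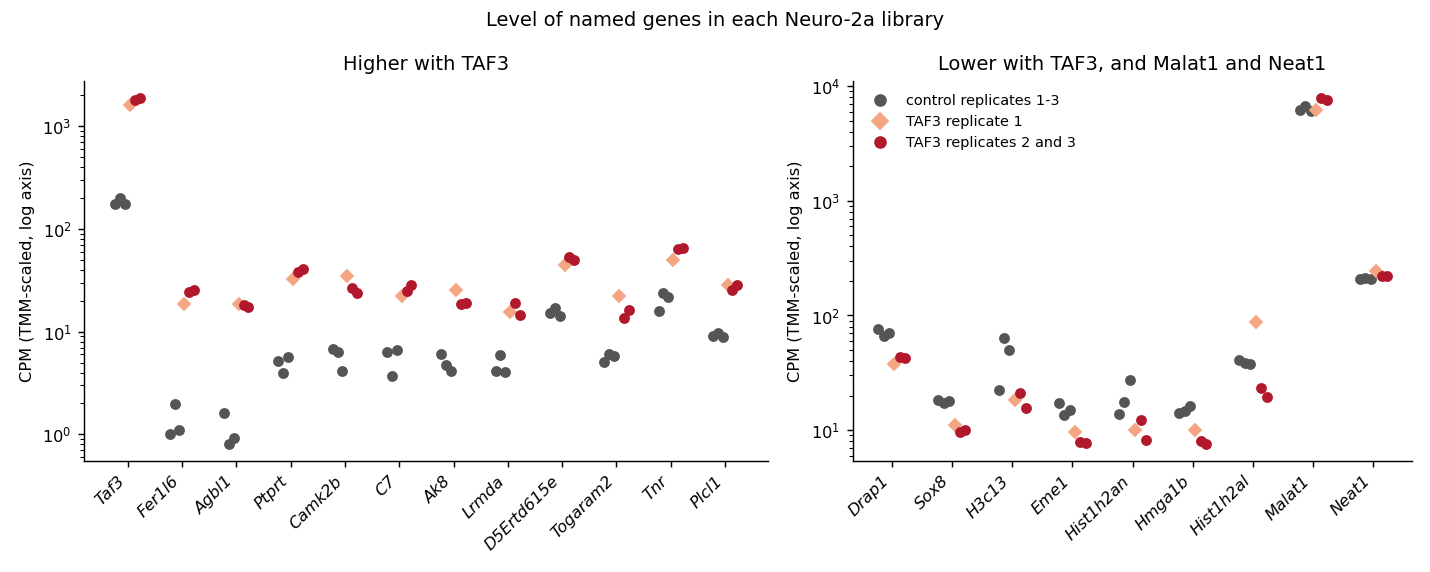
CPM (TMM-scaled, log axis) of named genes in each library: grey points are the 3 controls, the orange diamond is TAF3 replicate 1 and red points are TAF3 replicates 2 and 3. The groups do not overlap for any gene in the left panel, while Hist1h2al at right has TAF3 replicate 1 above the controls and the other TAF3 libraries below them.

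The sequence just before the annotated start of a gene bears on a reader of H3K4me3, since that mark follows CG-rich promoters. The 250 bases before the start of 3 genes are printed from mm10 in the direction of transcription, with each CG in capitals, to show how far the named genes differed. Of the rises described so far other than Taf3, Fer1l6 had the largest and held 1 CG, Ptprt rose and held 39 CG, and Sox8, described further on, fell and held 18.
Fer1l6 (chr15:58509798-58510047, plus strand): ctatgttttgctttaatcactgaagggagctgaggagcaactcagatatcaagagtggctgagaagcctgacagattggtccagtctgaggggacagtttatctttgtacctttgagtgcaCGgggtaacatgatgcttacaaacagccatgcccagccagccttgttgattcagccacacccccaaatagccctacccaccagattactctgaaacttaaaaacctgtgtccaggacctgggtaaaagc
Ptprt (chr2:162661148-162661397, minus strand): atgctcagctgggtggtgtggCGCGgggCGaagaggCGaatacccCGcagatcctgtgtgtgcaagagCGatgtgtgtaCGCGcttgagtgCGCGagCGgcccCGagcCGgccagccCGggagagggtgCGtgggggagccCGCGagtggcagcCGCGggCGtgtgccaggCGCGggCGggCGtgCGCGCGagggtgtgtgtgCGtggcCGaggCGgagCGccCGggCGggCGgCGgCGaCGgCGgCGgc
Sox8 (chr17:25570687-25570936, minus strand): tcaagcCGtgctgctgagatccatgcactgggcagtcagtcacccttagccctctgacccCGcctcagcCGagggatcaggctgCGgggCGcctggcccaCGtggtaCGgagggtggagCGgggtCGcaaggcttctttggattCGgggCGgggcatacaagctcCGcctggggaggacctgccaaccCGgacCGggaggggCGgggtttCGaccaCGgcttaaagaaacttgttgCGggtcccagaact

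The motif CG reads the same on both strands and was counted in each gene's 250 bases. Genes enriched with all 6 libraries had a median of 6 CG and the other tested genes 12, and at least 10 CG were found in 37.8% and 57.6% of them. Without TAF3 replicate 1 the medians were 5 and 12, and the shares 33.3% and 58.3%. At least 1 CG was found in 96.5% of the enriched genes and 97% of the others with all 6 libraries. Within protein-coding genes of 10 to 100 counts per library the difference was nearly gone, with medians of 9 for enriched and 9 for other genes with all 6 libraries, and 8 and 9 without TAF3 replicate 1. These are descriptions of 1 annotated start per gene, and starts used in these cells were not measured.

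The enriched share rose with the span of the gene, from its annotated start to its end, which is also a description with no test. With all 6 libraries, 0 of 1854 tested genes of up to 3 kb were enriched by edgeR, and the share was 0.244% from 3 to 10 kb, 0.808% from 10 to 30 kb, 1.18% from 30 to 100 kb, 2.6% from 100 to 300 kb and 5.05% above 300 kb. Without TAF3 replicate 1 the same bins held 0.538%, 1.5%, 3.15%, 3.89%, 6.44% and 12.4%. The order was thus the same in both fits. The median span was 65 kb for the 172 enriched genes and 20.6 kb for the other tested genes, and 42.6 kb and 20.3 kb without TAF3 replicate 1. Long and short genes were also set side by side at like level. Among genes with 10 to 30 counts per library, 21.9% of those above 100 kb and 1.79% of those up to 10 kb were enriched without TAF3 replicate 1, and from 30 to 100 counts the shares were 20.8% and 1.08%. Above 1000 counts, 3 of 2992 genes were enriched. The length in the deposited table equals the whole span for all 55401 genes, introns included, and the tables do not say which reads fell in introns. A gene of great span also more often holds or overlaps others. Of the 565 genes, 132 overlapped another gene on the same strand, 280 on the other strand and 241 overlapped none, and whether the counting used strand is not given in the sources used here.

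**Figure D4:**
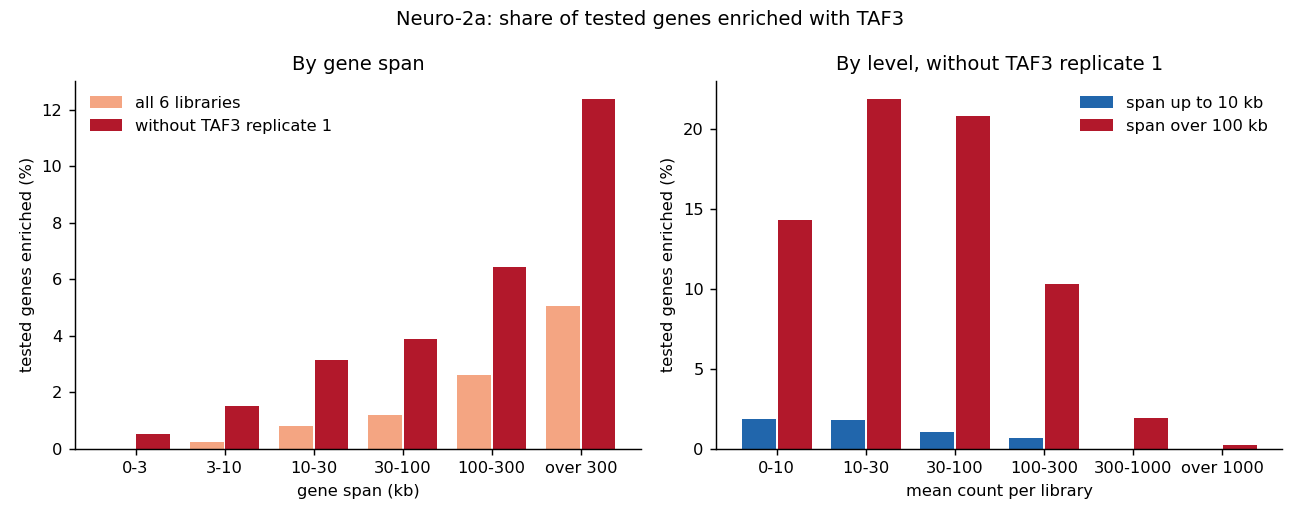
Share of tested genes enriched with TAF3 (percent), by gene span in kb at left with all 6 libraries (orange) and without TAF3 replicate 1 (red), and by mean count per library at right for genes of up to 10 kb (blue) and over 100 kb (red) without TAF3 replicate 1. The share climbs with span to 5.05% and 12.4% above 300 kb, and long genes exceed short ones in each bin of level.

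Among genes of neuronal adhesion and synapse, many of them very long, 3 of 50 tested were enriched with all 6 libraries and 9 of 50 (18%) without TAF3 replicate 1, beside 1.01% and 3.34% of all tested genes. Among all tested genes above 300 kb the shares were 5.05% and 12.4%. The list's median log2 fold change was 0.49 in both fits. Sorcs1, a sorting receptor of neurons, had 3, 6 and 5 counts in the controls and 124, 136 and 190 with TAF3. That was the largest rise of the list, at 5.04 on the log2 scale (standard error 0.32, edgeR adjusted p = 1.13e-04), and the groups were far apart. Unc5d, a netrin receptor, had 0, 6 and 1 counts against 11, 24 and 22, and Gria1, a subunit of AMPA glutamate receptors, 0, 1 and 1 against 3, 14 and 15. Both passed without TAF3 replicate 1 (adjusted p = 0.00261 and 0.00293) and not with it (0.135 and 0.117). None of the list was depleted in either fit by edgeR, although 6 members with all 6 libraries and 9 without TAF3 replicate 1 were lower at an unadjusted p under 0.05, and DESeq2 and voom called 0 of them.

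Of the voltage-gated channel genes, 1 of 72 passed with all 6 libraries and 5 of 72 (6.94%) without TAF3 replicate 1, with medians of 0.10 and 0.05. The first share, 1.39%, was near the 1.01% of all tested genes, and the second stood beside 3.34%. At an unadjusted p under 0.05, 11 channel genes were higher and 11 lower with all 6 libraries, and 10 and 15 without TAF3 replicate 1. Scn7a, of the sodium channel family, had 3, 0 and 0 counts in the controls and 47, 40 and 39 with TAF3 (adjusted p = 0.00763 by edgeR with all 6). The potassium channel genes Kcnt1 (0, 3 and 1 against 15, 17 and 19 counts), Kcnq3 (2, 1 and 3 against 8, 14 and 13) and Kcnq1 (36, 43 and 31 against 61, 76 and 80) passed without TAF3 replicate 1, with adjusted p-values of 0.00369, 0.0255 and 0.00245. None of the 4 genes had overlapping groups. All but Kcnq1 were at 3 counts or fewer in each control.

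Structural genes at few counts in the controls were also among the enriched ones. Of the collagen genes, 3 of 28 were enriched with all 6 libraries and 7 of 25 (28%) without TAF3 replicate 1, beside 1.01% and 3.34% of all tested genes, with medians of 0.85 and 0.51. Col15a1, a basement membrane collagen, had 1, 3 and 1 counts against 30, 30 and 21 (log2 fold change 4.01, edgeR adjusted p = 0.0158), and Col13a1, a transmembrane collagen, 5, 6 and 0 against 31, 36 and 38 (3.31, 0.0427). The axonemal dynein heavy chains, motors of motile cilia, gave 2 of 11 (18.2%) and 3 of 12 (25%), beside the same background. The 4 genes named in this paragraph with fold changes each span over 100 kb. Among all tested genes above 100 kb with 10 to 30 counts per library, 9.01% were enriched with all 6 libraries and 21.9% without TAF3 replicate 1. From 30 to 100 counts the shares were 11.6% and 20.8%. Whether either family differs from long genes at like level was not tested. Dnah2 had 38, 42 and 30 counts against 117, 89 and 108 (1.60, 0.0143), and Dnah10 24, 40 and 17 against 90, 71 and 90 (1.71, 0.0422). In Dnah2, Dnah10, Col13a1 and Col15a1 each TAF3 library lay above each control. The smaller family lists held 1 enriched member each, too few to set against those shares: Fer1l6 among 5 ferlins tested with all 6 libraries, and Agbl1 among 6 cytosolic carboxypeptidases.

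The enriched share was higher among lincRNA genes than among protein-coding genes, which is given as a description with no test. The types were not matched for level. Among all tested genes with 10 to 30 counts per library, 2.17% were enriched with all 6 libraries and 8.09% without TAF3 replicate 1. From 300 to 1000 counts the share was 0.275% in both fits. With all 6 libraries, 29 of 961 tested lincRNA genes (3.02%) and 128 of 13485 protein-coding genes (0.949%) passed, and without TAF3 replicate 1, 112 of 953 (11.8%) and 388 of 13422 (2.89%). Antisense genes gave 7 of 999 (0.701%) and 34 of 1000 (3.4%), and processed transcripts 3 of 360 (0.833%) and 15 of 366 (4.1%), both below the protein-coding share with all 6 libraries and above it without TAF3 replicate 1. Gm48544, a lincRNA gene, had 0, 2 and 0 counts in the controls and 86, 65 and 47 with TAF3. Of the antisense genes with the largest rises, Gm47271 had 5, 4 and 3 counts against 77, 125 and 133, and Gm15261 had 7, 11 and 4 against 134, 172 and 177. In each of the 3 genes the groups were far apart. Their log2 fold changes with all 6 libraries were 6.49 for Gm48544 (standard error 0.704), 4.84 for Gm47271 (0.337) and 4.52 for Gm15261 (0.308), with edgeR adjusted p-values of 0.00279, 1.17e-04 and 1.13e-04. The other non-coding genes that the rule named included the lincRNA genes 4930461G14Rik (log2 fold change 4.41) and Gm30624 (3.32), the antisense gene 1700027A15Rik (3.69), and the processed transcript 2610307P16Rik (1.16), each called in both fits.

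Nuclear-retained and imprinted lncRNAs, many of which act at chromatin, gave 0 of 18 with all 6 libraries by edgeR. They gave 5 of 18 (27.8%) without TAF3 replicate 1. The enriched share was 1.01% of all tested genes and 3.02% of lincRNA genes with all 6 libraries. It was 3.34% and 11.8% without TAF3 replicate 1. The list's medians were 0.13 and 0.18. On all 6 libraries DESeq2 called 2 and voom 4, and by edgeR 5 were higher and 4 lower at an unadjusted p under 0.05. Leaving TAF3 replicate 1 out gave 7 higher and 5 lower unadjusted. Rian and Mirg, transcripts of the imprinted Dlk1-Dio3 region, had 13, 18 and 13 against 29, 35 and 42 counts, and 7, 1 and 0 against 35, 12 and 29. H19, an imprinted maternally expressed RNA, had 5, 2 and 3 counts against 7, 17 and 23. Their adjusted p-values without TAF3 replicate 1 were 0.0136, 0.00826 and 0.00847. Malat1 and Neat1, the abundant RNAs of nuclear speckles and paraspeckles, were not called in either fit. Malat1 had 81196, 74253 and 66958 counts in the controls and 62527, 85855 and 88534 with TAF3. Scaled for depth, TAF3 replicate 1 was at 6184 CPM, within the controls (6233, 6726 and 6127 CPM), and the other TAF3 libraries were above them (7833 and 7511 CPM). The log2 fold change of Malat1 without TAF3 replicate 1 was 0.27 (edgeR adjusted p = 7.70e-05), under the threshold of size. Neat1 was at 0.13 with all 6 libraries (adjusted p = 0.498), and Sox2ot at 0.63 (0.446).

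Some RNAs were counted in the TAF3 libraries alone. A count of 0 in all 3 controls with at least 5 counts in every TAF3 library was found for 22 genes, and the reverse for 0 genes. At a minimum of 10 counts there were 4. Trpv3, a warmth-activated cation channel, had 55, 47 and 35 counts with TAF3, at least 16.4-fold above a floor of 3 counts per control library. The lincRNA genes Gm32122 (37, 43 and 31 counts), 5730419F03Rik (32, 30 and 34) and Gm12068 (14, 22 and 16) were at least 13.2-fold, 11.3-fold and 6.12-fold higher. Such intervals and floors cover counting error only.

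Genes of housekeeping and stress programs were rarely called. By edgeR 0 of 82 cytosolic ribosomal protein genes were called in either fit (medians -0.01 and -0.00), 0 of 22 mitochondrially encoded genes (-0.15 and -0.19), 0 of 17 heat shock genes (-0.15 and -0.06), 0 of 18 ATF4 targets (0.04 and -0.10), 0 of 13 p53 targets (0.04 and -0.06), 0 of 12 SR splicing factors (-0.18 and -0.14) and 0 of 19 replication and mitosis genes (-0.28 and -0.18). DESeq2 and voom on all 6 libraries also called 0 in each of these lists. At an unadjusted p under 0.05 with all 6 libraries the counts of higher and lower members were 0 and 0 for ribosomal proteins, 1 and 4 for mitochondrial genes, 0 and 3 for heat shock, 1 and 2 for ATF4 targets, 0 and 0 for p53 targets, 1 and 3 for SR factors and 0 and 9 for replication and mitosis. They were 5 and 4, 1 and 6, 2 and 4, 2 and 5, 2 and 3, 1 and 6, and 0 and 11 without TAF3 replicate 1, in the same order of lists. Of 25 genes that write, read or erase H3K4 methylation 0 were called by any of the 3 tools, with 0 higher and 2 lower at an unadjusted p under 0.05 and 2 and 10 without TAF3 replicate 1. Immediate early genes gave 0 of 19 by edgeR and voom and 1 by DESeq2, with 1 higher and 1 lower unadjusted, and snoRNA host genes 0 of 14 by all 3 tools, with 0 and 2. In the interferon-stimulated list Mx1, an antiviral GTPase gene annotated here as a polymorphic pseudogene, passed in both fits (17, 24 and 28 against 50, 77 and 91 counts). Usp18 and Oas1a passed without TAF3 replicate 1 (edgeR adjusted p = 0.0168 and 0.0306). That made 1 of 20 (5%) and 3 of 20 (15%), with list medians of 0.03 and 0.05. In the NRF2 list 1 of 13 (7.69%) passed in both fits, with list medians of 0.09 and 0.07. The member was Osgin1, an oxidative stress gene, with 31, 20 and 16 counts against 111, 62 and 67. Of all tested genes, 1.01% were enriched with all 6 libraries and 3.34% without TAF3 replicate 1.

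**Figure D5:**
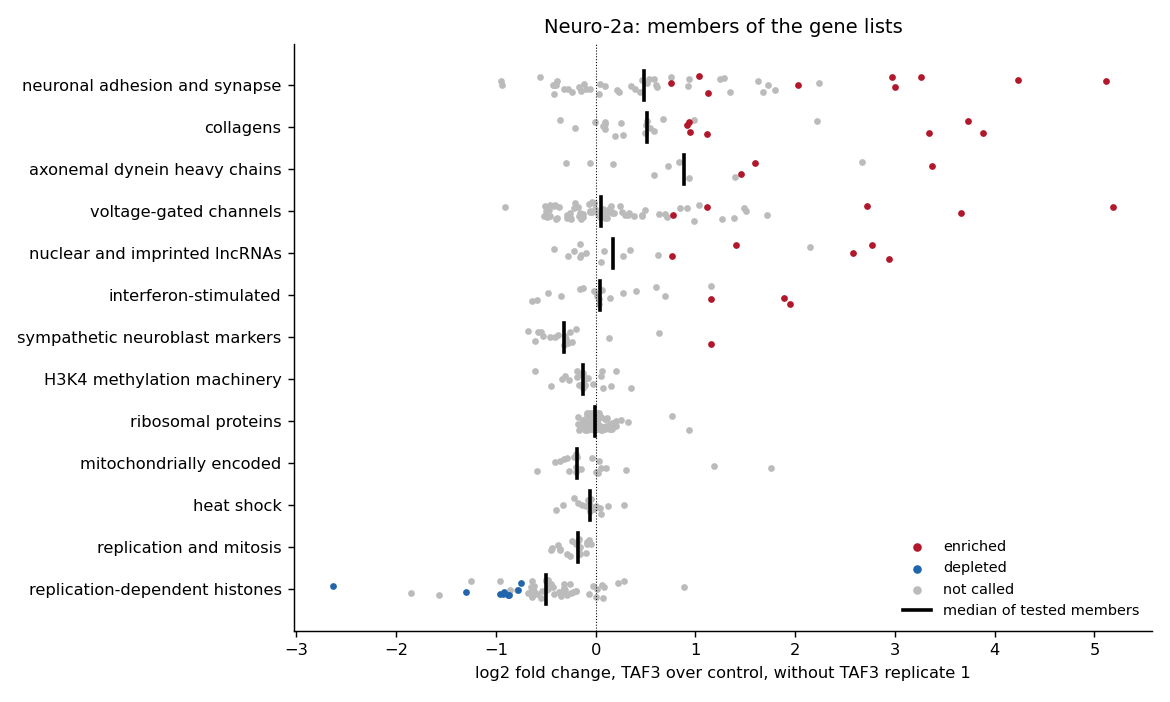
Log2 fold change of TAF3 over control without TAF3 replicate 1 for the tested members of 13 gene lists; red points are enriched, blue depleted, grey not called, and black bars are medians. Adhesion genes and collagens reach far to the right (medians 0.49 and 0.51), ribosomal proteins lie around -0.00, and the histone list, newer symbols included, has a median of -0.50.

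The 4 genes depleted with all 6 libraries were Drap1, Sox8, Pltp and Atn1, the last pair named outside the rule after their values were seen. Drap1, a subunit of the NC2 repressor that binds the TATA-binding protein, had 984, 724 and 775 counts in the controls and 380, 478 and 497 with TAF3 (log2 fold change -0.78, standard error 0.116, edgeR adjusted p = 0.0138). Sox8, a SoxE transcription factor of neural crest derivatives, had 239, 192 and 194 against 111, 105 and 118 (-0.81, 0.154, 0.0402). In both, each TAF3 library lay below each control. Pltp, a phospholipid transfer protein, changed by -1.08 (adjusted p = 0.0448) and Atn1, the corepressor atrophin-1, by -1.45 (0.0402). Without TAF3 replicate 1 Drap1 stood at -0.72, just short of the threshold of size, while Sox8 (-0.86), Pltp (-1.12) and Atn1 (-1.36) passed.

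Depleted genes were short: without TAF3 replicate 1 the 55 had a median span of 6.07 kb, and 22 of 1859 tested genes of up to 3 kb were depleted (1.18%), against 1 of 1677 from 100 to 300 kb (0.0596%). Histone genes, among the shortest of genes, lay lower without TAF3 replicate 1. Replication-dependent histone genes encode the core histones made in S phase, mostly without poly(A) tails. Of those matched with the older symbols 0 of 9 were depleted with all 6 libraries by edgeR, 1 by DESeq2 and 4 by voom, with 3 lower at an unadjusted p under 0.05, and 3 of 8 were depleted without TAF3 replicate 1. With newer symbols included, a choice made after the data were seen, the counts were 0 of 59 and 9 of 58, with medians of -0.28 and -0.50, while DESeq2 called 3 and voom 8 on all 6 and 10 were lower unadjusted. H3c13, an H3 gene, had 292, 699 and 544 counts in the controls and 184, 229 and 184 with TAF3, and its log2 fold change was -1.30 without TAF3 replicate 1 (standard error 0.212, edgeR adjusted p = 2.88e-05) and -1.31 with it (0.0852). Hist1h2an, an H2A gene, had 179, 195 and 297 counts against 102, 134 and 97. In H3c13 and Hist1h2an all 3 TAF3 libraries lay below the controls. Hist1h2al, annotated as a processed pseudogene, went the other way in TAF3 replicate 1, with 534, 423 and 411 counts in the controls and 890, 255 and 229 with TAF3. Its log2 fold change was 0.16 with all 6 libraries and -0.87 without TAF3 replicate 1 (adjusted p = 2.45e-06). Members of this family are near-identical, and reads shared between them make single values uncertain.

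The other named falls without TAF3 replicate 1 were Eme1, a subunit of a DNA repair nuclease (223, 150 and 165 against 98, 86 and 92 counts), and Hmga1b, a high mobility group protein (182, 161 and 177 against 101, 89 and 90). Their log2 fold changes were -0.96 and -0.92, and with all 6 libraries their edgeR adjusted p-values were 0.0567 and 0.0671. In Eme1 and Hmga1b the groups did not overlap in any library. One depleted call rested on a single control: Iffo2, named after its values were seen, was at 121 CPM in Control replicate 1 and at or under 0.456 CPM in the other 5 libraries.

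Markers of the labelled line were present with gaps. Of the sympathetic neuroblast markers, Tubb3 was at 0 counts in all 6 libraries and Nefl and Nefm at 9 counts or fewer, while Hand2, a transcription factor of the sympathetic lineage, had 2327 to 4196 counts. The summed level of the list was 5417 to 5701 CPM in the controls and 4182 to 5163 CPM with TAF3, and its median log2 fold change was -0.23 with all 6 libraries and -0.31 without TAF3 replicate 1. Dbh, the enzyme that makes noradrenaline, was the 1 enriched member of 19 tested, with 92, 82 and 77 against 164, 166 and 199 counts. Most of the list went the other way. By edgeR, 2 of these markers were higher and 9 lower at an unadjusted p under 0.05 with all 6 libraries. Without TAF3 replicate 1 the counts were 2 and 14. Of fibroblast markers, Col3a1, Thy1, Lum and Twist2 were at 0 in all 6 libraries, 0 of 8 tested with all 6 libraries were called by edgeR (3 higher and 1 lower at an unadjusted p under 0.05, 1 enriched by DESeq2 and 2 by voom), and Col6a1 and Dcn made 2 of 6 without TAF3 replicate 1. The summed level of that list was 387 to 429.9 CPM in the controls and 277 to 402 CPM with TAF3. Epithelial markers summed to 0.272 to 0.461 CPM in the controls and 1.19 to 2.87 CPM with TAF3, with 0 of 2 called by any of the 3 tools and 1 higher unadjusted, and endothelial markers to 9.44 to 11.5 and 17.7 to 19.6 CPM. Of 2 endothelial markers tested, edgeR called 0 with all 6 libraries, with 1 higher unadjusted, while Pecam1, an adhesion molecule of endothelial cells, was enriched without TAF3 replicate 1, and DESeq2 and voom each called 1 on all 6. Leukocyte markers summed to 2.17 to 2.92 and 2.04 to 2.74 CPM, with Ptprc at 0 in all 6. By edgeR the enriched share of all tested genes was 1.01% with all 6 libraries and 3.34% without TAF3 replicate 1, and these marker lists hold few tested members. The part of other cells in the result was not tested.

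A set of 151 genes with at most 1 count over the Neuro-2a controls and a mean of at least 500 counts in the controls of NIH3T3, the mouse fibroblast line of the series, was read as a further measure of RNAs nearly silent in the controls. Their summed counts were 15, 9 and 11 in the controls and 194, 149 and 162 with TAF3. The low control sums follow from how the genes were chosen, so the difference between the groups is in part set by that choice and is given as a description. Of these genes, 62 were at 0 in every TAF3 library, among them Il1rl1, with a mean of 29823 counts in the NIH3T3 controls, and Thbs2. The 49 members above 100 kb held 4, 3 and 8 counts in the controls and 115, 69 and 71 with TAF3. Olfactory and vomeronasal receptor genes, 1471 in number and short in span, summed to 520, 433 and 404 counts in the controls and 408, 473 and 551 with TAF3. These raw sums overlapped. Scaled for depth they were 39.9, 39.2 and 37 CPM in the controls and 40.4, 43.2 and 46.7 CPM with TAF3. Each TAF3 library thus lay above each control on that scale, TAF3 replicate 1 by little.

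NIH3T3 cells were given the same reader and their own controls, 3 libraries each, and were counted on the same annotation, so the Neuro-2a genes could be read in libraries that had no part in choosing them. In NIH3T3, 10.7% of tested genes were enriched and 0.375% depleted. Of the 172 genes enriched in Neuro-2a with all 6 libraries, 150 were tested in NIH3T3 and 91 were enriched there (60.7%), against 7.57% of all genes tested in both lines. Those 91 made 7.87% of the 1156 NIH3T3 genes in that background. Of the 565 genes, 472 were tested, 220 were enriched (46.6%, against 7.41%) and 0 were depleted. Fer1l6, Ptprt, D5Ertd615e and Lrmda were enriched in both lines, with log2 fold changes of 3.80, 3.14, 1.57 and 2.04 in NIH3T3. Of the 55 genes depleted in Neuro-2a without TAF3 replicate 1, 48 were tested in NIH3T3 by edgeR, and 0 were depleted and 1 was enriched there.

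An interaction term fitted to the 12 libraries compared the lines directly, and 140 of 19509 genes (0.718%) had a larger TAF3 effect in Neuro-2a and 455 (2.33%) a larger one in NIH3T3. Leaving out TAF3 replicate 1 of Neuro-2a gave 217 and 637. The values that follow are from all 12 libraries. Camk2b rose by 2.29 in Neuro-2a and changed by 0.22 in NIH3T3 (interaction 2.05, edgeR adjusted p = 9.76e-05). Gm15261 rose in both lines, by 4.52 and 1.40 (3.12, 1.52e-04). Scn7a differed by 4.89 (0.0165), and 2610307P16Rik by 1.54 (1.95e-05), from 1.16 in Neuro-2a to -0.39 in NIH3T3. Drap1, which fell in Neuro-2a, was at 0.09 in NIH3T3 (-0.88, 6.72e-04). Taf3 rose by 3.25 in Neuro-2a and 6.04 in NIH3T3 (-2.80, 1.13e-09). Many of the 140 genes were high in NIH3T3 and rare in Neuro-2a, with a median of 833 counts per NIH3T3 library and 19.2 per Neuro-2a library, and 14 were at 0 in all Neuro-2a controls. By edgeR with all 6 libraries, 30 of the 140 were enriched in Neuro-2a itself. Among the 455, 394 were enriched in NIH3T3 and 62 were at 0 in all NIH3T3 controls.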

How the data were processed

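The authors trimmed reads with fastp 0.23.1, aligned them to mm10 (GRCm38.p6) with HISAT2 2.1.0 and counted them per gene with featureCounts 2.0.1 on GENCODE vM25. The deposited values are raw counts of 55401 genes, not normalized, and strand and multimapping settings are not given in the sources used here. The authors tested with DESeq2 1.34.0. Here the counts were fitted with edgeR 4.0.16 in R 4.3.3 (TMM, quasi-likelihood test, Benjamini-Hochberg over all tested genes), since the comparison is 3 libraries against 3. Genes entered when the summed count exceeded 3 per library. Groups came from sample titles, and each per-sample column of the 2 tables matched a listed sample. CPM were scaled with TMM factors, and each standard error is the fold change divided by the square root of F. A call needed an adjusted p below 0.05 together with a log2 fold change of 0.75 or more in either direction, the thresholds of the study. PCR reads are not independent molecules, so depth understates the error.

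The members and the gene lists were chosen with earlier results of these data known. Named genes followed a rule: Taf3; up to 10 rises and 5 falls called with at least 100 counts on average and no overlap between groups, in each fit; up to 4 called members of each list by fold change; up to 3 non-coding genes of each type with at least 20 counts; 5 interaction genes in each direction; and Neat1, Malat1, H19, Tincr and Sox2ot, of which Tincr matched no gene symbol in the table. Exceptions are marked. A few values that the rule or lists would give are not reported here. Alternatives were DESeq2 1.42.0, limma 3.58.1 (voom with quality weights), other filters and scalings, a replicate block and leaving out each library. On simulated data with 200 genes changed by 1.5 (log2), 186 were recovered with 8 false calls over 16595 genes for all 6 libraries, 189 with 4 over 16584 without TAF3 replicate 1, and 171 with 6 over 19181 for the interaction. No simulated library stood apart as TAF3 replicate 1 did, and only genes with at least 20 counts on average were changed. These rates therefore check the code and do not carry over to the real libraries or to rarer RNAs.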

Additional observations from a re-analysis of the deposited data

Results flagged for a closer look

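The effect of TAF3 differed between Neuro-2a and NIH3T3 by the interaction test of edgeR at 140 genes that were larger in Neuro-2a and 455 that were larger in NIH3T3. Among the named genes, those with a larger value in Neuro-2a had interactions, on the log2 scale and as Neuro-2a minus NIH3T3, of 6.51 for Tns3, 6.05 for Arnt2, 5.97 for Atp8b4, 5.87 for Col6a3, 5.71 for Serpinb8, 4.89 for Scn7a, 4.19 for Gria1, 3.35 for Mirg, 3.12 for Gm15261, 2.25 for Dcn, 2.05 for Camk2b, 1.55 for Osgin1, 1.54 for 2610307P16Rik, 1.21 for Rian and 0.80 for Firre. Tns3, Arnt2, Atp8b4, Col6a3 and Serpinb8 were at 0 counts in all 3 Neuro-2a controls, so their fitted values depend on the prior count and are no bounds. In Neuro-2a alone, Col6a3 and Serpinb8 had too few counts to be tested. Tns3, Arnt2 and Atp8b4 were not called there with all 6 libraries by edgeR, and Tns3 and Atp8b4 passed without TAF3 replicate 1. In the TAF3 libraries Tns3, which encodes the focal adhesion protein tensin-3, had 9, 13 and 8 counts, while Col6a3 had 12, 2 and 2 and Arnt2 14, 5 and 1, with TAF3 replicate 1 the highest of both.

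Genes with a larger value in NIH3T3 had interactions of -9.15 for A830019P07Rik, -7.53 for Gm47760, -7.39 for Clvs1, -7.15 for Gm8417, -7.13 for Dcdc2a, -2.80 for Taf3, -1.93 for H3c13, -1.83 for Hist1h2an, -1.59 for Sox2ot and -0.88 for Drap1. A830019P07Rik, Clvs1 and Dcdc2a were well expressed in Neuro-2a, with 453 to 487, 2412 to 2902 and 782 to 934 counts in its controls. None of these 3 was enriched in Neuro-2a, at log2 fold changes of -0.28, -0.64 and -0.10 with all 6 libraries. A830019P07Rik, Clvs1, Dcdc2a and Gm8417 were at 0 counts in all 3 NIH3T3 controls. Their fitted interactions therefore depend on the prior count and are no bounds. In the NIH3T3 TAF3 libraries A830019P07Rik had 54, 70 and 79 counts, and Clvs1 27, 14 and 5. Dcdc2a had 15, 21 and 20 there, and Gm8417 16, 17 and 13. Gm47760 was nearly absent from Neuro-2a, with 1, 4 and 0 counts in its controls and 0, 2 and 1 with TAF3, too few to be tested in that line alone.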

How the results depend on the processing

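The main counts were recomputed under each alternative, which gave 64 values in all. They were genes enriched (172) and depleted (4) in Neuro-2a, and genes with a larger TAF3 effect in Neuro-2a (140) or NIH3T3 (455). Of the 64 values, 40 lay within 1.5 times the main count. DESeq2 gave 389 enriched and 13 depleted genes and 215 larger in Neuro-2a, voom with quality weights 711 and 51 and 707 larger in NIH3T3, and no filter 489 and 27 and 241 larger in Neuro-2a. Leaving out each library in turn gave 41 to 565 enriched genes, 0 to 55 depleted, 85 to 217 larger in Neuro-2a and 347 to 637 larger in NIH3T3, with fewer samples in each fit. Same-numbered libraries did not deviate together (correlations 0.0016, 0.0111 and 0.00724 for numbers 1 to 3), so the numbers do not pair the samples. With the replicate block edgeR called 134 enriched genes and 2 depleted. Without TAF3 replicate 1, further settings chosen after seeing the data gave 400 enriched and 26 depleted genes by DESeq2, 503 and 49 with filterByExpr, 635 and 44 with library size alone and 624 and 42 by voom. Library size alone moved the median log2 fold change of all 6 libraries from 0.03 to 0.09. Of 1587 alternative values of named genes 2 reversed, both of Hist1h2al, at -0.75 by voom with quality weights and -0.87 without TAF3 replicate 1, against 0.16, with values from -0.87 to 0.51 when each library was left out; 110 lost the call and 114 gained it. Depth limits what can be seen below 10 counts per library, where 5 of 2872 tested genes were enriched with all 6 libraries and 153 of 2806 without TAF3 replicate 1.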
